A study of Mus musculus with 36 samples.

Results

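The wells described here were endothelial wells of the mouse left ventricle in which 5 genes, Plvap, Vwf, Apln, Mest and Igf2, gave more molecules together than 5 capillary genes, Cd300lg, Gpihbp1, Timp4, C1qtnf9 and Aqp1. Of 3146 wells with at least 1000 unique molecular identifiers (UMIs, each standing for 1 captured transcript), 370 were endothelial and 53 of these passed this rule. They are called 5-gene wells below, and the remaining 317 are called the other endothelial wells. A well counted as endothelial when Pecam1, Cdh5, Egfl7, Kdr, Emcn, Cav1, Ly6c1 and Fabp4 took at least 0.6% of its UMIs, with 8 macrophage genes under 1% and 5 fibroblast genes under 2%. Measured values of these genes chose the members, so their levels in the chosen wells are a description.

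Endothelial cells line every vessel of the heart. Resting capillary cells of the myocardium take up fatty acids and carry the lipase anchor Gpihbp1, whereas cells of growing or inflamed vessels and of veins and the endocardium use other programmes. Apelin (Apln) is a secreted ligand of sprouting endothelium that acts on the receptor Aplnr, Plvap builds the diaphragms of fenestrae and caveolae and is a gene of veins and leaky vessels, and Vwf, the von Willebrand factor, is stored in endothelial granules and binds platelets. Mest and Igf2 are imprinted genes linked to growth, and Igf2 encodes insulin-like growth factor 2.

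Single cells of the left ventricle, taken from the infarcted region in injured hearts, had been sorted into multi-well plates, 1 cell a well, and sequenced by SORT-seq, a plate-based method that counts UMIs at the ends of transcripts. The mice were male C57BL/6 animals of 8 weeks with no transgene named in the labels. Ischaemia-reperfusion (IR) hearts had the left anterior descending artery tied for 1 hour and then released, and were taken on day 1 (9 plates), day 3 (7 plates) or day 14 (3 plates). Myocardial infarction (MI) hearts had the same artery tied for good and were taken on day 3 (5 plates), and sham hearts had surgery without ligation and were taken on day 1 (4 plates) or day 14 (8 plates, of which 7 were used because replicate 2 repeats replicate 7). The labels give no sham heart of day 3, so both sham groups together served as the control for day 3. The labels do not say which mouse each plate came from. The MI plates outnumber the mice reported for MI, so some of them share mice. Plates of the IR and sham groups may share mice too, but the number of mice behind them is not known. The p-values over plates in every comparison may therefore be too small.

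Plate totals ran from 176614 to 5551870 UMIs, and the MI plates held 3713893 to 5289230. The 36 plates carry the same set of barcodes. A search for wells repeated between plates found 3 pairs of plates with 9 to 77 matching wells, and 0 of the 53 members was among them. The members held 1175 to 190460 UMIs (median 8612) from 656 to 10750 genes. No doublet caller was run on wells sorted singly. One member stood far apart: a well of IR day 1 replicate 9 with 190460 UMIs held 56.4% of all UMIs of the IR day 1 members, while the next deepest in that group held 29704. This well also carried 103 UMIs of Notch3, 94 of Pdgfrb, 84 of Myh11 and 483 of Acta2, genes of pericytes and smooth muscle, so results of the IR day 1 members are given without it where it moves them.

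All 53 members carried the pan-endothelial gene Pecam1, and 51 carried Cdh5, which encodes VE-cadherin. The angiopoietin co-receptor gene Tie1, which the rule did not use, was found in 48 of 53, and Esam, a junction gene also outside the rule, in 48. In 408 wells of a macrophage gate (macrophage genes at least 1%, endothelial genes under 0.6%), Pecam1 was found in 15.9% and Tie1 in 15.9% at a median of 11711.5 UMIs, which serves as the background level in another cell type. Markers of other cell types were low in most members. The median member held 0.0244% of its UMIs from 12 cardiomyocyte genes and 0.0036% from 5 neutrophil genes. Single wells held more: cardiomyocyte genes passed 1% in 4 members, the highest being 2.61% in a well of IR day 3 replicate 7 and 1.98% in the member of IR day 14 replicate 1, and neutrophil genes reached 1.94% in a well of IR day 1 replicate 6. The part of these wells in the results was not tested. Outside the deepest well, 10 mural genes took at most 0.0404% of the summed members of any IR day 1 plate and at most 0.0296% of any MI plate.

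The members passed the rule by a median of 19 UMIs (range 1 to 190), and 9 of 53 carried no UMI of the 5 capillary genes. Just inside the threshold lay 2 wells with a margin of 1 UMI. Just outside lay 13 wells with equal counts, 9 of which had no UMI of any of the 10 genes, and 5 wells that missed by 1 UMI.

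The share of endothelial wells that were 5-gene wells was highest in MI. In MI, 25 of 41 endothelial wells were members (61.0%, exact 95% binomial interval 44.5 to 75.8%). In IR day 1 there were 18 of 82 (22.0%, 13.6 to 32.5%). In IR day 3 there were 4 of 27, in IR day 14 there were 2 of 52, in day 1 sham 3 of 103 and in day 14 sham 1 of 65. These intervals cover counting error only.

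By plate, the 5 MI plates held 6 members of 7 endothelial wells, 7 of 12, 6 of 9, 5 of 10 and 1 of 3. Over the 9 IR day 1 plates the share ran from 14.3 to 33.3%, with 1 to 3 members on every plate. Of the 8 sham plates with at least 3 endothelial wells, 5 held no member, and the remaining 3 held 2.94%, 3.57% and 11.1%. The ranges of MI and sham did not overlap, nor did those of IR day 1 and day 1 sham.

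**Figure D1:**
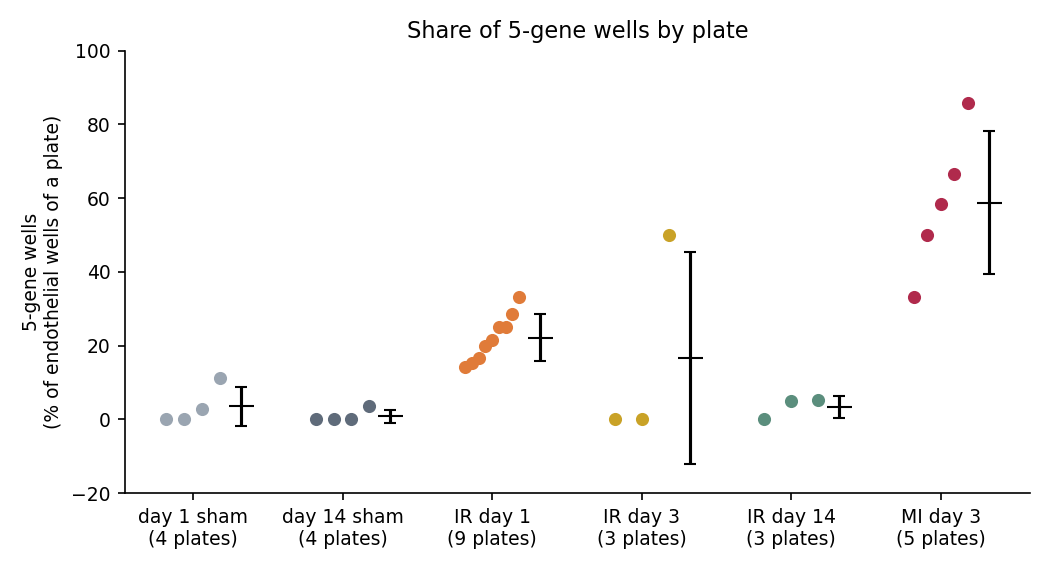
Share of endothelial wells that were 5-gene wells (percent) on each plate with at least 3 endothelial wells, by group. Points are plates in order of their value, the horizontal line is the mean over plates and the bar is 1 SD (bars can reach below 0, shares cannot). MI plates lie between 33.3 and 85.7%, IR day 1 plates between 14.3 and 33.3%, and 7 of 8 sham plates under 4%.

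The mean share was 58.8% ± 19.4 (SD, n = 5 plates) in MI against 2.20% ± 3.89 (n = 8) in sham, a difference of 56.6 points (two-sided exact permutation test over plates, p = 0.00155, the smallest this design can give, adjusted p = 0.00559 over 4 comparisons). In IR day 1 the mean was 22.2% ± 6.38 (n = 9) against 3.51% ± 5.25 (n = 4) in day 1 sham, a difference of 18.7 points (two-sided exact permutation test, p = 0.0028, again the smallest possible, adjusted p = 0.00559). In IR day 3 the mean of 3 plates was 16.7% ± 28.9 and rested on replicate 7 with 3 of 6 wells, while replicates 3 and 4 had none (difference from sham 14.5 points, two-sided exact permutation p = 0.545, adjusted p = 0.545), and without replicate 7 the difference was -2.20 points. In IR day 14 the mean was 3.42% ± 2.97 (n = 3), 2.53 points above day 14 sham (two-sided exact permutation p = 0.286, adjusted p = 0.381), a design in which p cannot go below 0.0571. The rule's genes were picked with earlier results of these groups known, so these tests are not independent evidence for the choice of genes. The median mitochondrial share of all UMIs was 11.1% in members and 10.3% in other endothelial wells of MI, against 24.2 and 43.5% in sham. Other endothelial wells held a median of 9809 UMIs in MI and 3071 in sham. In MI against sham, here and in the gene levels below, ligation cannot be told apart from the day and the set of plates. The part of the mitochondrial share and of depth was not tested.

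The rule compares small counts, and members were deeper than the other endothelial wells of the same group in MI (median 18666 against 9809 UMIs) and IR day 1 (5853.5 against 2851) but not in day 1 sham (2330 against 3210). Every endothelial well was therefore thinned to 1000 UMIs, in a single random draw, and the rule applied again. The mean share was then 51.5% ± 14.4 in MI and 2.20% ± 2.52 in sham (difference 49.3 points, exact permutation p = 0.00155), and 21.2% ± 11.1 in IR day 1 against 2.12% ± 2.67 in day 1 sham (19.1 points, exact permutation p = 0.014). In IR day 3 the thinned share was 27.8% ± 21.0 and passed the test against sham (25.6 points, exact permutation p = 0.0121, adjusted p = 0.0186), where the unthinned share did not. That p is the smallest this design can give. The change came from 1 well of 4 on replicate 3 and 1 well of 12 on replicate 4, which became members in this draw. With the endothelial genes required to take 1% of UMIs, the IR day 1 difference was 11.01 points and no longer passed (exact permutation p = 0.222).

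The 5 genes were rarely found together in a well. Only 4 of the 53 members carried all 5 genes, 7 carried 4, 15 carried 3, 19 carried 2 and 8 carried a single one. Plvap and Vwf were found together in 28 members, and Apln and Mest in 23. Apln shared a well with Plvap in 14 members and with Igf2 in 4. UMIs count transcript ends, so the counts of different genes were compared with no scaling for length. By the gene with the most UMIs, 15 members were led by Apln, 14 by Mest, 12 by Plvap, 7 by Vwf and 5 by Igf2.

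**Figure D2:**
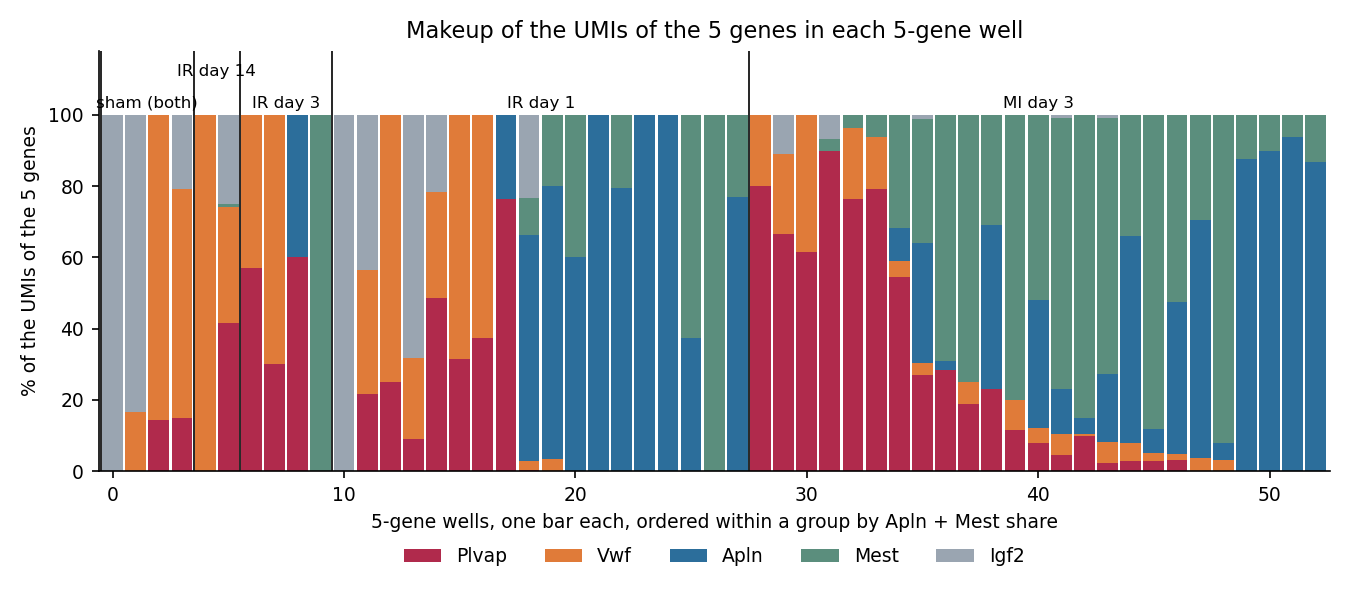
Makeup of the UMIs of the 5 genes in each of the 53 members, 1 bar a well, in percent of those UMIs, grouped by condition and ordered by the summed share of Apln and Mest. The 4 sham bars hold only Plvap, Vwf and Igf2, while 10 of 18 IR day 1 bars and 18 of 25 MI bars are led by Apln or Mest.

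Counted in this way, 29 members were led by Apln or Mest and 24 by Plvap, Vwf or Igf2. Apln or Mest led 18 of 25 members in MI, 10 of 18 in IR day 1, 1 of 4 in IR day 3, 0 of 2 in IR day 14 and 0 of 4 in sham. No sham member carried a UMI of Apln or Mest, and 1 of the 4 was a member through a single UMI of Igf2, so Apln did not mark the sham members. The split was made from the 5 genes after their values were seen, so what follows on it is description with no test.

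The wells led by Apln or Mest held more of several sprouting genes. Left without the deepest well, 28 wells on 13 plates (median 13273.5 UMIs) held 1023 CPM of Trp53i11 (CPM, UMIs of a gene scaled by all UMIs of the summed wells), against 132 CPM in the 24 wells led by Plvap, Vwf or Igf2 (median 5871 UMIs). Igfbp3, which binds insulin-like growth factors, stood at 1027 against 237 CPM. Esm1, a tip cell gene, was found in 8 of 28 wells and in none of the 24, where a count of 0 at their lower depth does not show absence. The summed level of 20 sprouting genes was 0.837% of UMIs against 0.456%, and that of 17 basement membrane and matrix genes was 2.55% against 1.49%. Of the capillary genes, Gpihbp1, which the rule used, stood at 851 against 160 CPM, and Cd36, outside the rule, at 564 against 388 CPM. The lipase gene Lpl stood at 145 against 40.5 CPM within MI and at 185 against 54.3 CPM within IR day 1, whereas the order over all groups was the other way (152 against 231 CPM), with 1271 CPM in 3 wells of IR day 3 and 3276 CPM in 2 of IR day 14 led by Plvap, Vwf or Igf2.

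The wells led by Plvap, Vwf or Igf2 held more of several genes of veins and endocardium. Selp, the P-selectin of venous and inflamed endothelium, was found in 10 of 24 wells (474 CPM) against 2 of 28 (9.85 CPM). Nr2f2, a transcription factor of vein identity, was found in 16 of 24 (200 CPM) against 5 of 28 (41.4 CPM). Mgp, an inhibitor of calcification, stood at 1975 against 67.0 CPM. The natriuretic peptide receptor gene Npr3, a marker of endocardium, was found in 7 of 24 and 0 of 28 wells, and Cytl1, also an endocardial gene, in 6 of 24 and 0 of 28. The Selp difference was present within IR day 1 (4 of 8 wells against 0 of 9) and within MI (5 of 7 against 2 of 18), and no MI member carried Npr3 or Cytl1.

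Some single wells held several of these genes at once. The day 14 sham member, from replicate 1, held 114 UMIs of H19 (an imprinted RNA next to Igf2), 18 of Npr3 and 35 of Cytl1. The member of IR day 14 replicate 1 held 45 UMIs of Plvap and 35 of Vwf beside 24 of Npr3. An IR day 1 member of replicate 8 held 17 UMIs of Plvap and 37 of Vwf beside 30 of Npr3, 59 of H19 and 36 of Lyve1, a gene of lymphatic and some other endothelium. The 7 MI members led by Plvap held no Npr3 and differed among themselves. The 2 deepest, of replicates 1 and 2 with 92274 and 58119 UMIs, held 162 and 107 UMIs of Plvap, 23 and 71 of Lyve1 and 93 and 50 of Mki67. The other 5, with 3961 to 27784 UMIs, held 6 to 38 of Plvap, 0 or 1 of Lyve1 and 0 to 15 of Mki67.

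The share of wells in which each of the 5 genes was found also has to be read against depth. In MI, Mest was found in 22 of 25 members (88.0%; 56.0% after thinning), against 68.8% of the other endothelial wells and 9.94% of 161 macrophage gate wells with a median of 23968 UMIs. Apln was found in 17 of 25 (68.0%; 44.0% thinned), against 8 of 16 and 11.2%. Plvap was found in 19 of 25 (76.0%; 36.0% thinned), against 4 of 16 and 24.8%, so the share of the other endothelial wells was at the level of the macrophage gate. Igf2 was found in 5 of 25 MI members, a lower share than the 27.3% of the macrophage gate, and its level there (18.9 CPM against 13.8 CPM) was near background. Igf2 reached 399.8 CPM in the IR day 1 members, 353 CPM without the deepest well, and 5.53 CPM in the macrophage gate there.

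The 10 genes were next compared between groups in all endothelial wells of a plate, summed without regard to which well was a member. A summed level cannot tell more cells with a transcript from more of it in each cell. The sums were tested with edgeR's quasi-likelihood test over 3584 genes, in plates with at least 3 endothelial wells. In MI against sham, 676 genes (18.9%) passed as higher and 636 (17.7%) as lower, in IR day 1 against day 1 sham 8.18% and 9.07%, and in IR day 3 against sham 1.42% and 0.586%. In IR day 14 against day 14 sham 0% passed in either direction, with 167 genes at an unadjusted p under 0.05, and DESeq2 called none of the 10 genes there. The 10 genes were chosen with earlier results of these groups known, so their counts are not read against these shares, and the p-values given for them set a difference against the spread over plates without being independent evidence. In MI, 3 of the 5 genes rose and 1 fell, and 4 of the 5 capillary genes fell. In IR day 1, 3 of 5 rose and 4 of 5 capillary genes fell. In IR day 3, 1 capillary gene fell, and in IR day 14 none of the 10 passed.

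Apln stood at 269, 491, 648, 412 and 504 CPM on the 5 MI plates and at 0 to 129 CPM on the 8 sham plates. It rose by 4.89 on the log2 scale (SE 0.71, edgeR adjusted p = 1.5e-06), and the ranges of MI and sham did not overlap. On the IR day 1 plates it ran from 48.5 to 2332 CPM (median 456) against 0, 0, 3.91 and 10.6 CPM in day 1 sham (log2 fold change 6.86, SE 0.98, edgeR adjusted p = 1.4e-05), with no overlap. Those 4 sham plates held 2 UMIs of Apln in all, so the fold is loosely fixed. On the IR day 3 and day 14 plates Apln was at 53.0 CPM or less.

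Mest stood at 817, 1472, 844, 1150 and 360 CPM on the MI plates, all above the 7.05 to 207 CPM of sham (log2 fold change 4.36, SE 0.45, edgeR adjusted p = 2.5e-09). Unlike Apln and Plvap it was present at a low level on each of the 4 day 1 sham plates, between 37.9 and 63.3 CPM. In IR day 1 its mean was 193 CPM ± 136 (SD, n = 9) against 47.7 CPM ± 11.9 (n = 4), a log2 fold change of 1.97 (SE 0.53, edgeR adjusted p = 0.0079), with 1 plate at 0. Mest was also at 291 and 296 CPM on 2 of 3 IR day 3 plates, where the test against sham did not pass (log2 fold change 2.15, SE 0.63, edgeR adjusted p = 0.066). It passed there in DESeq2 (adjusted p = 0.0434) and, in edgeR, with no filter, without day 14 sham replicate 7 and with at least 1 endothelial well a plate (adjusted p = 0.022, 0.0287 and 0.00819).

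Plvap was at 0 on 6 of the 8 sham plates. It stood at 770, 730, 181, 470 and 0 CPM on the MI plates (log2 fold change 4.25, SE 0.81, edgeR adjusted p = 7.5e-05). It was above 0 on 8 of 9 IR day 1 plates, up to 858 CPM (log2 fold change against day 1 sham 4.40, SE 1.11, edgeR adjusted p = 0.0052). The 2 sham plates that held Plvap, at 23.5 and 106 CPM, overlapped with both injured groups.

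Vwf did not follow Plvap. Its mean was 127 CPM ± 117 (SD, n = 5) in MI, 75.7 CPM ± 69.7 (n = 4) in day 1 sham and 207 CPM ± 204 (n = 4) in day 14 sham, with overlapping ranges (MI against sham log2 fold change -0.05, SE 0.72, edgeR adjusted p = 0.97). Igf2 went the other way from Apln in MI: it stood at 6.72, 34.8, 0, 38.3 and 0 CPM there and averaged 88.4 CPM in day 1 sham and 92.3 CPM in day 14 sham (log2 fold change -2.47, SE 0.87, edgeR adjusted p = 0.025). The Igf2 call did not pass in DESeq2 (adjusted p = 0.0831). In edgeR it did not pass without day 1 sham replicate 4, day 14 sham replicate 1, MI replicate 1 or MI replicate 3 (adjusted p from 0.0652 to 0.149), or with day 1 sham alone as the control (adjusted p = 0.0758). Neither gene passed in IR day 1, with 1.34 for Vwf and 0.83 for Igf2 on the log2 scale.

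**Figure D3:**
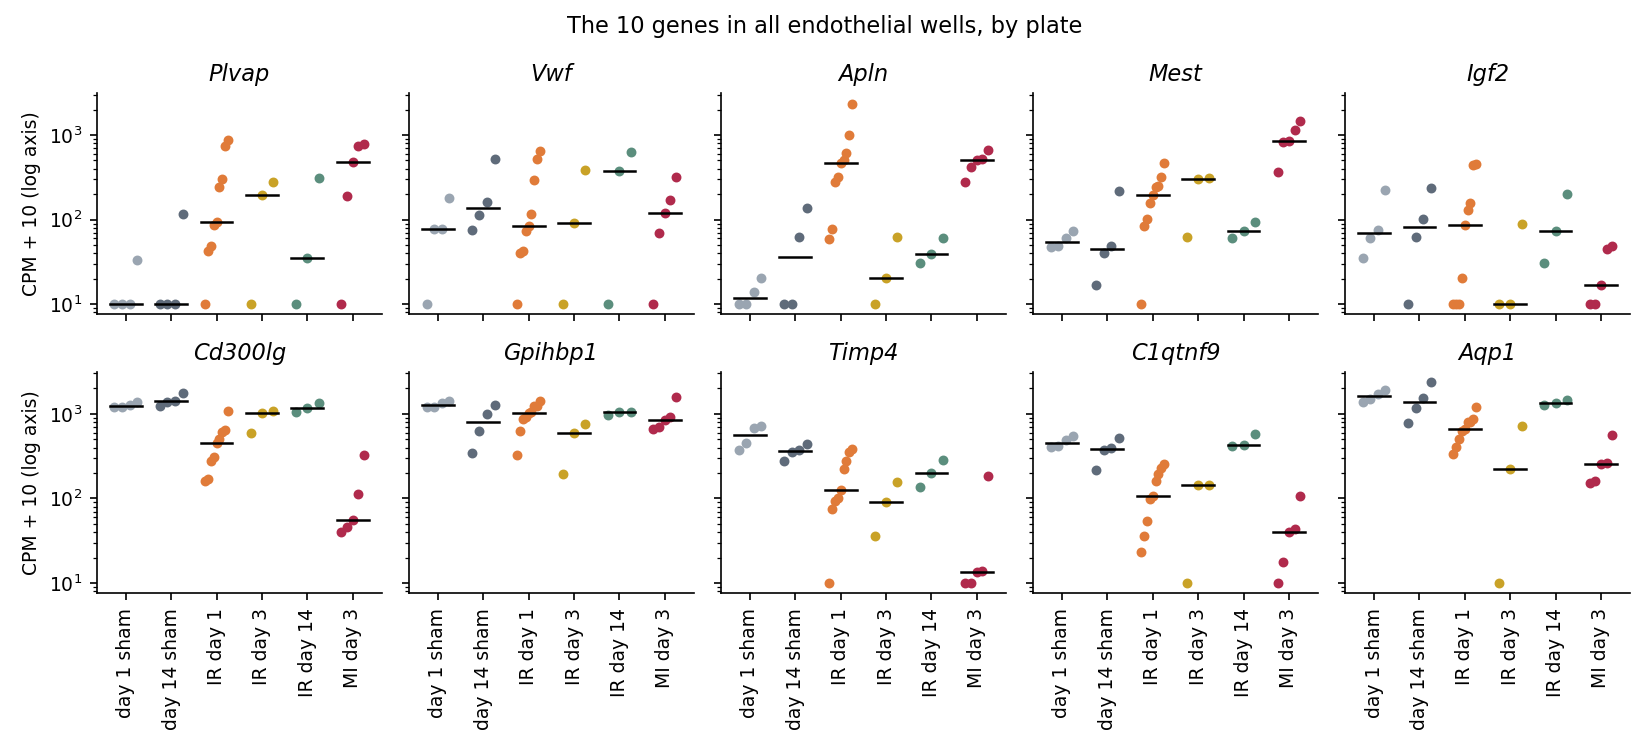
The 5 genes of the rule (upper row) and the 5 capillary genes (lower row) in all endothelial wells summed by plate, in CPM + 10 on a log axis. Points are plates with at least 3 endothelial wells in order of their value, and lines are group medians. Apln and Mest lie above sham on all 5 MI plates, Vwf overlaps in every group, and Cd300lg, Timp4, C1qtnf9 and Aqp1 lie lower in MI.

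Of the capillary genes, Cd300lg, a receptor of capillary endothelium, fell from a high and even sham level. It stood at 104, 46.4, 30.1, 316 and 36.0 CPM in MI against 1192 to 1760 CPM on the sham plates (log2 fold change -3.70, SE 0.44, edgeR adjusted p = 3.8e-08), and at 153 to 1073 CPM in IR day 1 (-1.57, SE 0.36, edgeR adjusted p = 0.0024). Timp4, a metalloproteinase inhibitor, C1qtnf9, an adiponectin paralogue, and the water channel Aqp1 fell by 3.87, 3.68 and 2.58 on the log2 scale in MI. The same genes fell by 1.62, 2.12 and 1.37 in IR day 1, where Aqp1 did not pass with the replicate number as a block (-1.10, edgeR adjusted p = 0.0637). The Timp4 call in IR day 1 (edgeR adjusted p = 0.019) did not pass without the deepest well (edgeR adjusted p = 0.0976), without day 1 sham replicate 2 or replicate 3 in turn, or in DESeq2. Aqp1 was the gene that passed in IR day 3, by -1.96 (SE 0.47, edgeR adjusted p = 0.019). It did not pass without IR day 3 replicate 3 or replicate 7 (edgeR adjusted p = 0.0751 and 0.195), with at least 1 or at least 5 endothelial wells a plate (0.098 and 0.0578) or with day 14 sham alone (0.0993).

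Gpihbp1 stood apart from the other capillary genes, with 659, 912, 686, 1553 and 829 CPM in MI against 338 to 1407 CPM in sham (log2 fold change -0.26, SE 0.31, edgeR adjusted p = 0.54). The value in IR day 1 was -0.54 (SE 0.31, edgeR adjusted p = 0.24). Members led by Apln or Mest held 902 CPM of it in MI. On MI replicate 4, the 4 genes Cd300lg, Gpihbp1, Timp4 and Aqp1 were each far above the other 4 MI plates.

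Outside the 10 genes, members were set beside the other endothelial wells of the same plate on the 7 plates with at least 3 wells of each class (MI replicates 2, 3 and 4, IR day 1 replicates 3, 8 and 9 and IR day 3 replicate 7). This is the contrast the rule made, so mean log2 ratios of CPM + 50 are given with their SD over plates and no test. Of 3729 genes with at least 50 UMIs, 304 (8.15%) were higher and 245 (6.57%) lower on at least 6 of 7 plates, with a median ratio over all genes of 0.04. Left without the deepest well, and with at least 2 wells of each class, 11 plates gave a median of -0.14, so values under that setting differ in both the well and the plates.

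The higher genes included matrix and vessel wall genes. Fn1, fibronectin, had a mean log2 ratio of 1.59 ± 1.32 (SD, n = 7) and was higher on 7 of 7 plates, at 376 to 1484 CPM in the members and 27.7 to 475 CPM in the other wells. Fstl1, a secreted glycoprotein, was higher on 7 of 7 (1.59 ± 0.82). Mgp was higher on 6 of 7 (1.68 ± 1.78), and on the single plates its level in the members ran from 0 to 2631 CPM. Vcam1, the adhesion molecule that holds leukocytes, was higher on 6 of 7 (1.25 ± 1.24), and the anti-inflammatory annexin Anxa1 on 7 of 7 (1.28 ± 0.50). The endothelin receptor gene Ednrb had a ratio of 1.41 over the 7 plates and 0.04 over the 11 plates without the deepest well. The other 9 named genes were Cpe, Igfbp5, Emp3, Ctsz, Prnd, Foxc1, Col5a2, Rrm1 and Degs1, with ratios from 1.07 to 1.56. With at least 1 well of each class, 21 plates gave smaller ratios: Fn1 was at 0.40, Anxa1 at 0.35, Ednrb at 0.32, Emp3 at 0.63, Vcam1 at 0.66 and Ctsz at -0.0098. Under that setting 10 of the 15 named genes were smaller by more than 1.5 times, while Mgp was at 1.52 and Fstl1 at 1.18.

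The lower genes included those of resting capillaries. The fatty acid transporter Cd36 had a mean log2 ratio of -1.68 ± 1.78 (lower on 6 of 7 plates), Tcf15, a transcription factor of heart and muscle capillaries, -1.56 ± 0.61 (7 of 7), and the carbonic anhydrase gene Car4 -1.15 ± 1.03 (6 of 7). Id1, a target of BMP signalling, was at -1.32 ± 1.55. Myoglobin (Mb), a transcript of cardiomyocytes, was at -1.75 ± 1.46 and lower on 7 of 7 plates, in step with the cardiomyocyte list, whose median ratio was -0.60 over 7 measured genes. The part of free cardiomyocyte RNA in the other ratios was not tested. The remaining 10 named genes (A130077B15Rik, Vmn2r55, Slfn5, Kcnq1ot1, Mcf2l, Syne1, A630089N07Rik, Gm17821, Clec1a and Rsad2) ran from -1.62 to -1.15.

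**Figure D4:**
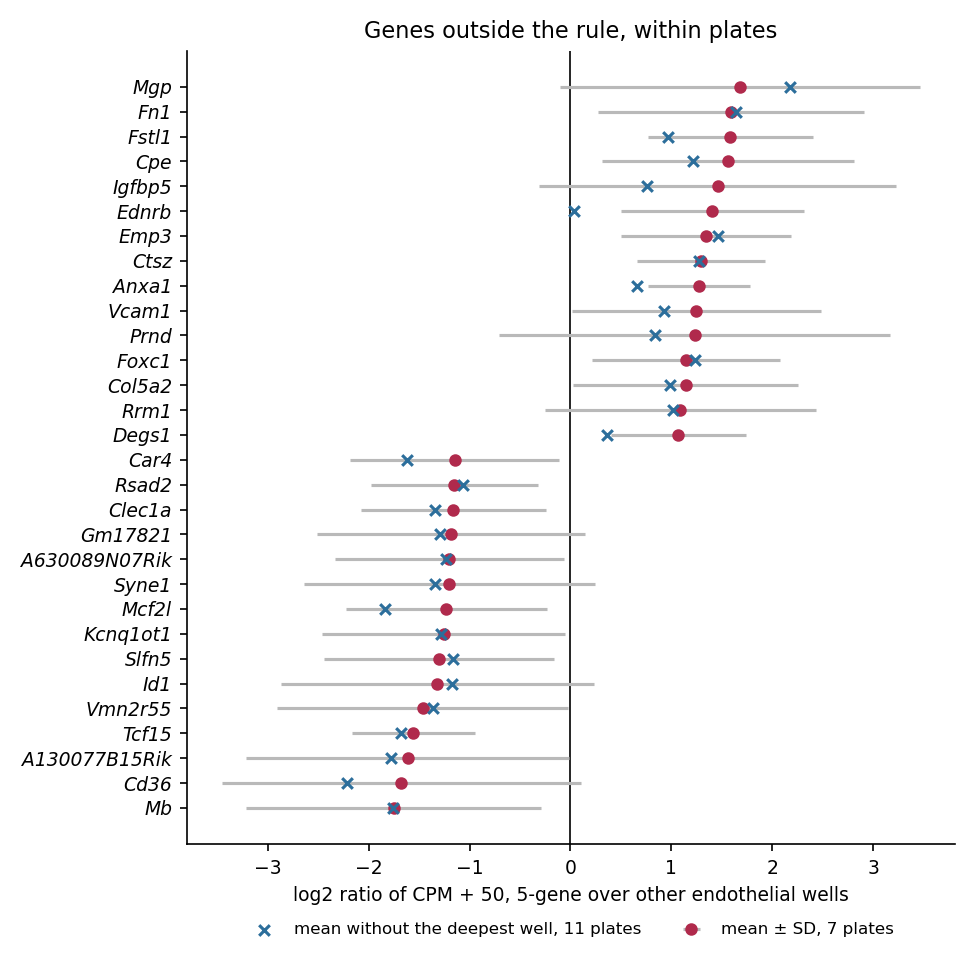
Mean log2 ratio of CPM + 50 in 5-gene wells over the other endothelial wells of the same plate, for the 15 highest and 15 lowest genes outside the rule. Red points and grey bars are the mean and SD over 7 plates, and blue crosses are means over 11 plates without the deepest well (at least 2 wells of each class). Fn1 and Tcf15 lie at 1.59 and -1.56, and Ednrb lies at 1.41 over the 7 plates and at 0.04 over the 11.

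By list, with medians over the 11 plates without the deepest well in second place, 4 of 11 measured genes of capillary and fatty acid uptake were lower on at least 6 of 7 plates (Car4, Cd36, Rgcc and Tcf15) and none was higher, with a median of -0.92 (-1.55) against 0.04 for all genes. Of 9 venous genes 1 was higher (Vcam1), with a median of 0.75 (0.92). Of 16 basement membrane and matrix genes 3 were higher (Col18a1, Fn1 and Mmrn2, medians 0.19 and -0.02), and of 9 genes of haemostasis and Weibel-Palade bodies 3 were higher (Anxa2, Cd63 and Cd9, medians 0.49 and 0.12). Of 10 junction genes 3 were lower (F11r, Pcdh1 and Ptprb, medians -0.30 and -0.21), and of 14 VEGF, TIE and Notch receptor genes 1 was lower (Flt1, medians -0.10 and -0.15). Of 19 sprouting genes 1 was higher (Ednrb) and 1 lower (Nrp1), with medians of 0.37 and -0.19. Of 21 cell cycle genes none reached 6 of 7 plates in either direction (medians 0.48 and 0.25). The members were chosen in this contrast, so nothing is read from these counts.

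The members of MI day 3 were next compared with those of IR day 1. This comparison was added after the data were seen, because the sham groups held too few members, and the kind of ligation, the day and the batch of plates cannot be told apart in it. UMIs of the members were summed on the plates with at least 2 of them, 4 in MI and 6 in IR day 1, without the deepest well. In edgeR's quasi-likelihood test over 1487 genes outside the rule, 32 genes (2.15%) were higher in MI and 7 (0.471%) lower. With the deepest well and at least 3 members a plate, 127 of 4017 (3.16%) were higher and 106 (2.64%) lower, and 34 of the 39 genes were called there too. Of the same 39, 35 were called in DESeq2, 25 with RLE factors, and 23 with at least 1 member a plate, where 33 could be tested.

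Of 22 cell cycle genes on the list, 15 fell under the filter on low counts. The other 7 (Stmn1, Top2a, Ube2c, Cdk1, Mki67, Hmgb2 and Pcna) were called higher in MI, but most of them passed the filter only through the MI members. Their number, their median and their p-values are therefore not read as a result, and the levels below are description. Stmn1, which regulates microtubules, stood at 708, 394, 455 and 1164 CPM on MI replicates 1 to 4 and at 0 UMIs on all 6 IR day 1 plates. Summed over the group it was at least 19.2-fold higher in MI, with 3 UMIs over the IR day 1 plates as the floor (edgeR adjusted p = 0.00056). Top2a, the topoisomerase of dividing cells, was at 0 UMIs on all 6 IR day 1 plates too and at least 18.1-fold higher (edgeR adjusted p = 0.0014). The same bound was 17.7-fold for Ube2c, 11.5-fold for Prc1, 11.4-fold for the mitotic kinase gene Cdk1 and 10.9-fold for the cyclin gene Ccna2. Mki67, the classical marker of dividing cells, held 453 UMIs in MI and 1 in IR day 1, a summed ratio of 68.4 (exact 95% counting interval 12.2 to 2710; edgeR adjusted p = 0.00047). On the smaller MI replicate 5, with a single member of 2744 UMIs, Cdk1 was at 364 CPM, which is 1 UMI, while Mki67, Stmn1 and Top2a were at 0.

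The same genes can be counted by well. At least 1 UMI of 9 mitotic genes was found in 24 of 25 MI members (96.0%; 72.0% after thinning to 1000 UMIs), against 10 of 16 other endothelial wells of MI (62.5%; 18.8% thinned). Their summed level was 3129 CPM in MI members, 816 CPM in the other endothelial wells of MI and 680 CPM in the MI macrophage gate. IR day 1 members held 44.4 CPM, with 5 of 18 wells positive (27.2 CPM and 4 of 17 without the deepest well) and 0 of 18 after thinning, against 92.5 CPM in the other endothelial wells there. Of the 4 members of IR day 3, 3 were positive, at 1371 CPM. Pooled over plates, MI members held more mitotic UMIs than the other endothelial wells of MI, and IR day 1 members did not hold more than theirs. These pooled levels mix class with plate, as MI replicate 1 gave 6 of the 25 MI members from 7 endothelial wells, and they were not tested over plates. Within plates, none of 21 cell cycle genes was higher on at least 6 of 7 plates. In a fit with the plate as a block, the MI against IR day 1 difference of Mki67 was 3.02 larger in members than in the other wells on the log2 scale (SE 1.98, edgeR adjusted p = 1), so a difference between the classes was not detectable for it.

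Igfbp3 and Aplnr were also among the genes higher in MI. Igfbp3 stood at 430, 1129, 1038 and 2384 CPM on MI replicates 1 to 4 and held 1 UMI on the 6 IR day 1 plates (summed ratio 88.4, exact counting interval 15.8 to 3497; edgeR adjusted p = 7.7e-05). Aplnr, the apelin receptor, stood at 345, 447, 761 and 665 CPM in MI and also held 1 UMI in IR day 1 (ratio 45.2, interval 8.05 to 1790; edgeR adjusted p = 0.00049). On the IR day 1 plates with a single member, left out here, replicate 1 held 337 CPM of Igfbp3 and 370 CPM of Aplnr, and replicate 2 held 231 CPM of Igfbp3. These 2 were the members of 15 tested sprouting genes that passed (list median 0.50). Over all 1487 genes 2.15% passed as higher, with a median of 0.14, and the list count is not read as a result. The importin gene Kpna2, with 2 UMIs in IR day 1, had a summed ratio of 17.8 (interval 4.86 to 147), Hmgb2, with 3, one of 16.8 (5.69 to 81.7), and the lysozyme gene Lyz1, with 3, one of 7.71 (2.59 to 37.8). Igfbp3 and Aplnr, like most of the cell cycle genes, passed the filter only through the MI members, so their p-values are not read as a result either. With single plates left out, Hmgb2 did not pass in 2 of 9 fits and Pcna and Lyz1 in 4 of 10 each. Cdk1, Prc1, Ccna2 and Kpna2 could be tested in only 4 such fits each. Lyz1 is a gene of myeloid cells, and the macrophage genes outside the rule took at most 0.0554% of the UMIs of a plate's members in MI and 0.187% in IR day 1.

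The 7 genes that were lower in MI included those of endocardium, veins and arteries. Npr3 had no UMI in the MI members and was at least 68.4-fold lower by the same floor (edgeR adjusted p = 0.02), yet 30 of its 31 UMIs in IR day 1 came from 1 well of replicate 8. Gja4, the connexin 37 gene of arteries, was at least 44.1-fold lower (edgeR adjusted p = 0.016). Mgp fell by 4.33 (SE 1.11, edgeR adjusted p = 0.03) on the log2 scale. Mgp ran from 0 to 13391 CPM between the IR day 1 plates, and replicates 7 and 8 held most of it. Foxc1, a transcription factor of vessels and endocardium, fell by 3.41 (SE 0.85, edgeR adjusted p = 0.029). Ahsg, a liver protein gene, was at least 35.3-fold lower and Tnnt2, a cardiomyocyte gene, fell by 2.83 (SE 0.64, edgeR adjusted p = 0.016), beside a cardiomyocyte list that took 0.294% of the UMIs of the IR day 1 members without the deepest well and 0.0101% in MI. The part of free RNA in these was not tested. These calls rested on single plates. With 1 plate left out at a time, Mgp did not pass in 7 of 10 fits (edgeR adjusted p up to 0.195), Foxc1 in 6 of 10 (up to 0.191), Npr3 in 5 of 9, Gja4 in 4 of 9, Ahsg in 4 of 8 and Tnnt2 in 2 of 10. Npr3, Gja4 and Ahsg did not pass in DESeq2 (adjusted p = 0.263, 0.345 and 0.292). They held no UMI in the MI members and passed the filter only through the IR day 1 members, so their p-values are not read as a result.

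**Figure D5:**
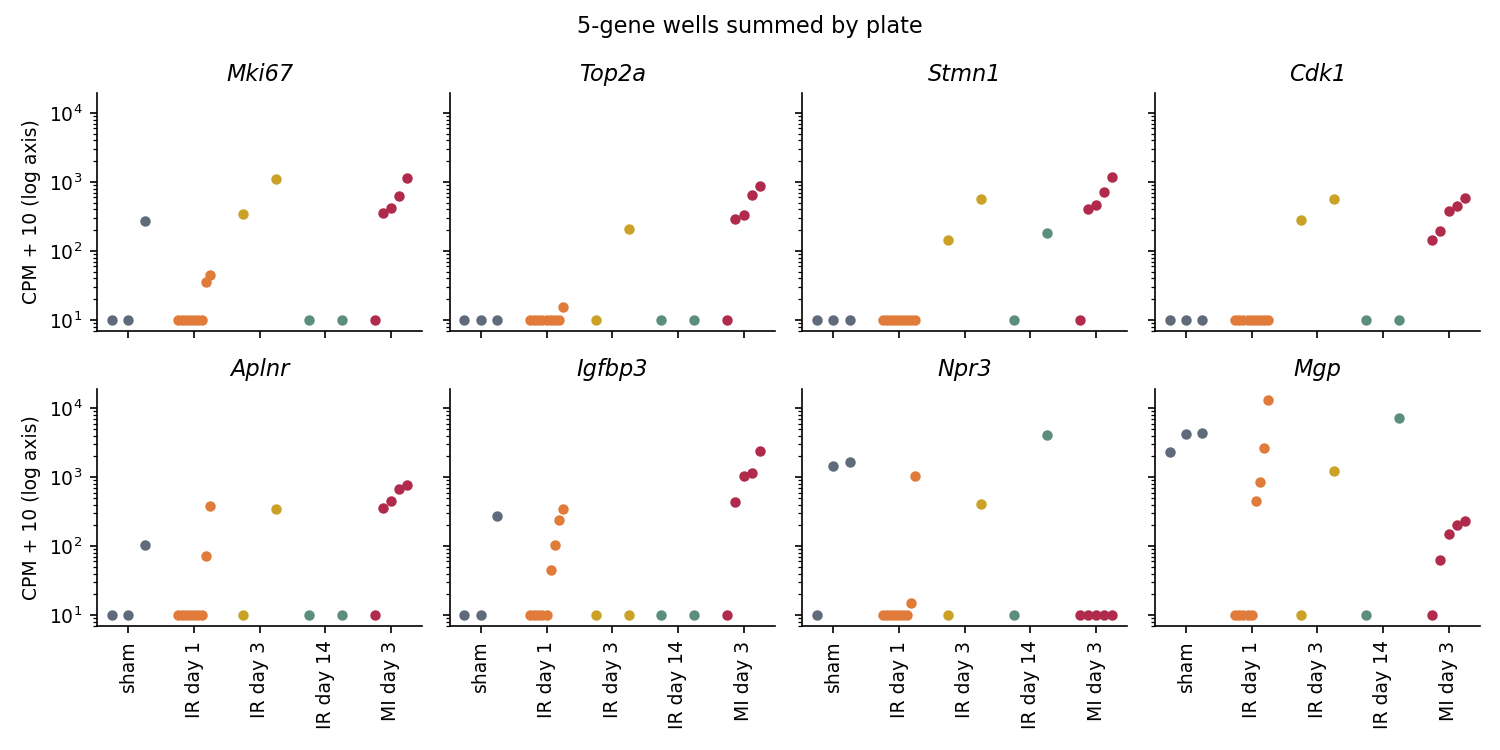
Levels of 8 genes in the 5-gene wells summed by plate, in CPM + 10 on a log axis, by group (both sham groups joined, all wells included). Points are plates with at least 1 such well, in order of their value. Mki67, Top2a, Stmn1, Aplnr, Igfbp3 and Cdk1 are high on 4 of 5 MI plates (the Cdk1 value of MI replicate 5 is 1 UMI), some of them are found in IR day 3 too, and Npr3 has no UMI on the MI plates, where Mgp is at most 222 CPM.

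Among the other lists, 3 of 13 actin and cytoskeleton genes passed as higher in MI (Tmsb10, Tuba1b and Tubb5, median 0.59), 1 of 14 matrix genes (Sparcl1, median 0.84) and 0 of 13 VEGF, TIE and Notch receptor genes (median 0.14; edgeR, 1 at an unadjusted p under 0.05, DESeq2 0). Over all 1487 genes, 2.15% passed as higher and 0.471% as lower, and the median was 0.14. Tmsb10, thymosin beta 10, stood at 1767, 2916, 2135 and 1478 CPM in MI and at 528 to 1246 CPM on the IR day 1 plates (log2 fold change 1.72, SE 0.42, edgeR adjusted p = 0.025). With 1 plate left out at a time, Tmsb10 did not pass in 5 of 10 fits (edgeR adjusted p up to 0.195), Tubb5 in 6 of 10 and Sparcl1 in 8 of 10 (up to 0.211), whereas Tuba1b passed each time. Sparcl1 did not pass in DESeq2 either (adjusted p = 0.058). None of 15 immediate early genes passed in edgeR (median -1.56; 5 at an unadjusted p under 0.05, DESeq2 1). None of 8 junction genes (median 0.33), 7 glycolysis genes (0.94) or 6 interferon and MHC class I genes (0.55) passed in edgeR or DESeq2, with 1, 2 and 1 at an unadjusted p under 0.05. The rule genes Igf2, Mest and Col3a1 also moved (-4.47, 2.55 and 4.59 on the log2 scale) and are given as description. The number of calls turned on single plates: it was 8 without MI replicate 1 or without MI replicate 4, 13 and 11 without replicates 2 and 3, 20 without IR day 1 replicate 8, and 62 and 85 without IR day 1 replicates 6 and 3.

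Against sham, members could be compared only on a thin base, since sham gave 4 members on 3 plates with 19533 UMIs in all. No sham plate had the 3 members that the test was planned with, so plates with at least 1 were used, which leaves MI 5 plates against 3, IR day 1 9 against 2 and IR day 3 2 against 3. The median log2 fold change over all genes was 1.56 in MI, 0.96 in IR day 1 and 0.52 in IR day 3, so a change has to be read against that shift. In edgeR's quasi-likelihood test over 1566 genes, 3 (0.192%) were higher and 4 (0.255%) lower in MI, 1 (0.0639%) higher and 3 (0.192%) lower in IR day 1, and 0 (0%) either way in IR day 3, where 116 had an unadjusted p under 0.05 and DESeq2 called 0.

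The higher genes in MI were Sparc and Col4a1, of the basement membrane, and the glycolytic enzyme gene Pkm. Sparc stood at 7289 to 11550 CPM on the 5 MI plates and 205 to 2345 CPM on the sham plates (log2 fold change 3.56, SE 0.83, edgeR adjusted p = 0.03). Col4a1 stood at 1093 to 5692 against 92.5 to 782 CPM (4.12, SE 0.96, edgeR adjusted p = 0.03), from 7 sham UMIs. Pkm stood at 1497 to 2768 CPM, with 2 UMIs in sham (summed ratio 18.8, exact counting interval 5.19 to 155; edgeR adjusted p = 0.022). The lower genes included Npr3 and the cardiomyocyte genes Myh6 and Cox6a2. Npr3 was at least 271-fold and Myh6 at least 76.0-fold lower in MI by the floor of 3 UMIs over the group, and Cox6a2 had 2 UMIs in MI and 8 in sham (130-fold lower, exact counting interval 25.99 to 1259). Npr3 did not pass in DESeq2 (adjusted p = 0.286) or in 4 of 8 fits that left out 1 plate. In sham it held 7 UMIs in a well of day 1 sham replicate 3, 18 in a well of day 14 sham replicate 1 and none in the other members. Without the deepest well, which enters the shared spread, Sparc and Col4a1 did not pass (edgeR adjusted p = 0.0538 and 0.0772). Without day 1 sham replicate 3, day 14 sham replicate 1, MI replicate 1 or MI replicate 2 in turn, 0 genes were called, and without MI replicate 3 there were 4.

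The cytoskeletal crosslinker gene Actn1 was higher in IR day 1 members, with 447 UMIs on 9 plates (225 without the deepest well) and 0 in the 2 sham plates (at least 3.85-fold, edgeR adjusted p = 0.049). Alpl, Fxyd6 and Tgfbi were lower and rested on 7, 4 and 29 UMIs of 1 sham plate each, with 1 UMI of Fxyd6 in IR day 1 (155-fold lower, exact counting interval 15.3 to 7624). The Actn1 call did not pass without the deepest well (edgeR adjusted p = 0.107) or in 8 of 11 fits that left out 1 plate (up to 0.506), and Alpl and Fxyd6 did not pass in 6 of 9 and 6 of 10. Tgfbi passed without the deepest well and in the 10 of 11 fits in which it could be tested. Its sham UMIs lay on 1 plate, so these fits do not show whether the call holds without that plate. The count was 7 without IR day 1 replicate 7 or without replicate 8, and 1 to 3 without any other plate.

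Whether the response of members differed from that of the other endothelial wells was asked with the interaction of class and group, the plate as a block. For MI against sham (5 and 3 plates with at least 1 well of each class), 6 of 1712 genes (0.35%) were higher in members relative to the other wells and 0 (0%) lower, with 231 at an unadjusted p under 0.05. These were Lpl, the lipase that Gpihbp1 anchors (5.00, SE 1.03, edgeR adjusted p = 0.002), Sptan1, Atp2a2, Slc25a4, Cenpb and Ndufa13. The median interaction over all 1712 genes was 0.80 on the log2 scale, so these values have to be read against that shift. Lpl stood at 313 CPM in the other endothelial wells of MI against 3474 and 3142 CPM in those of day 1 and day 14 sham, whereas in the members it was at 108 CPM in MI and 229 and 92.5 CPM in sham. The calcium pump gene Atp2a2 and the mitochondrial carrier gene Slc25a4 are abundant in cardiomyocytes, and the cardiomyocyte list took 1.26 and 3.41% of UMIs in the other endothelial wells of day 1 and day 14 sham, 0.183 and 0.13% in the sham members and 0.14% in the other endothelial wells of MI. Its part in these calls was not tested. The count was 0 without day 1 sham replicate 3 and 1 without MI replicate 3, and it was 11 without day 14 sham replicate 1 and 22 without MI replicate 5.

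For MI against IR day 1 (added after the data were seen, 3 and 6 plates with at least 2 wells of each class, without the deepest well), 2 of 1084 genes (0.185%) were higher in members relative to the other wells and 0 (0%) lower, with 44 at an unadjusted p under 0.05. Igfbp3 had an interaction of 5.02 (SE 0.93, edgeR adjusted p = 0.026), which was 1.04 (edgeR adjusted p = 0.99) with at least 1 well of each class. The taurine transporter gene Slc6a6 had one of 4.17 (SE 0.75, edgeR adjusted p = 0.026). The other endothelial wells of MI held more Igfbp3 (2080 CPM) than the MI members (920 CPM), and in IR day 1 it was at 165 CPM in the other wells. No gene was called once MI replicate 2, MI replicate 3 or IR day 1 replicate 8 was left out. Leaving out MI replicate 4 or IR day 1 replicate 5 gave 1 call, and leaving out IR day 1 replicate 6 gave 5.

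The 5 genes lie apart in the genome (GRCm38, the build the study aligned to): Plvap on chromosome 8 from 71497765 to 71511752, Vwf on chromosome 6 from 125546774 to 125686679, Mest on chromosome 6 from 30723547 to 30748465, Igf2 on chromosome 7 from 142650766 to 142666816 and Apln on chromosome X from 48025146 to 48034853. Only Mest and Vwf lie on the plus strand.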

How the data were processed

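Single cells of mouse left ventricle had been sorted into multi-well plates and processed by SORT-seq. The authors aligned the reads with BWA to GRCm38/mm10 and deposited UMI counts per gene and well, with version, annotation and filters not given in the sources used here. All 174110208 values read were whole, and the highest was 4096, the largest count that UMIs of 6 bases allow. Mitochondrial rows and spike-ins were left out, and 0 columns of per-sample values were left unused.

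The members and gene lists were chosen with earlier results of these data known, and day 14 sham replicate 2 was dropped. Shares were compared over plates with a two-sided exact permutation test (scipy 1.17.1). UMIs of a class were summed per plate and tested with edgeR 4.0.16 (quasi-likelihood F test, TMM, filterByExpr, Benjamini-Hochberg, threshold 0.05) in R 4.3.3, with DESeq2 1.42.0 as an alternative, on fits tested on simulated data. CPM are per summed UMIs of the class. Members against sham needed at least 3 wells a plate by plan and could not be fitted so; at least 1 was used, and IR day 14 members were not fitted. MI against IR day 1 was added after the data were seen.

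Named genes were the 15 highest and 15 lowest mean within-plate ratios with the sign on at least 3 in 4 plates, the 12 highest and 12 lowest called genes with every plate beyond the other group's mean, up to 4 called members of each list, the 10 rule genes and up to 6 interaction genes; genes of single wells and of the split by leading gene were chosen after their values were seen. The 24 lists cover vessel types, sprouting, matrix, growth, stress and other cell types. Same-numbered plates of different groups did not deviate together (39 pairs, median correlation -0.0056, highest 0.0897), so the numbers were not taken as pairs. Depth limits each value: plate totals were 176614 to 5551870 UMIs, but the members of a group held 8724 to 636081. The alternatives were other depth, margin, threshold, filter, normalization, tool, control and plate choices. Single results on 1 gene are not reported here.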

Additional observations from a re-analysis of the deposited data

Results flagged for a closer look

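Of 44 groups of plate values checked, 9 held a plate far from the others. Chance gives about 1 in 20 for values that vary evenly, but 3 of the 9 are plates above 0 in a group otherwise at 0, to which that rate does not apply. On MI replicate 4 the levels in all endothelial wells were 316 CPM for Cd300lg, 1553 CPM for Gpihbp1, 173 CPM for Timp4 and 546 CPM for Aqp1, against MI medians of 46.4, 829, 3.36 and 242 CPM. On IR day 1 replicate 6 Apln was at 2332 CPM against a median of 456 CPM. Day 1 sham replicate 3 held Plvap at 23.5 CPM and day 14 sham replicate 1 held it at 106 CPM where the other sham plates of each group were at 0. On day 14 sham replicate 1 the share of 5-gene wells was 3.57%, where the other 3 plates had none. On day 14 sham replicate 7 Mest was at 207 CPM against a median of 34.7 CPM.

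The difference between MI and sham was itself different in 5-gene wells and in the other endothelial wells for 6 genes, by the interaction term in edgeR, on 8 plates: Cenpb (8.94 on the log2 scale), Ndufa13 (8.78), Lpl (5.00), Sptan1 (4.60), Slc25a4 (3.67) and Atp2a2 (3.55). Between MI and IR day 1, on 9 plates, it was different for Igfbp3 (5.02) and Slc6a6 (4.17). The median interaction over all genes tested was 0.80 in MI against sham and 0.14 in MI against IR day 1.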

How the results depend on the processing

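The share in MI and the calls of Apln, Mest, Plvap, Cd300lg, Timp4, C1qtnf9 and Aqp1 in MI kept their direction and side of the threshold under every alternative run, and the IR day 1 share under all but the endothelial threshold of 1% (11.01 points, no longer past it). The IR day 3 share passed after thinning (25.6 points). Leaving out single plates gave 49.9 to 63.0 points for MI, 17.3 to 21.2 for IR day 1, -2.20 to 22.8 for IR day 3 (-2.20 without replicate 7) and 1.61 to 4.24 for IR day 14. Of the 10 rule genes, leave-one-out counts were 7 to 8 in MI, 6 to 7 in IR day 1, 0 to 2 in IR day 3 and 0 in IR day 14. The IR day 3 count of 1 was 3 in DESeq2, 5 with no filter, 3 with at least 1 endothelial well a plate (Mest, Timp4 and C1qtnf9, not Aqp1) and 0 with at least 5 or with day 14 sham alone.

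In the members, 7 calls in MI against sham became 29 in DESeq2 and 12 with day 14 sham alone (0 to 9 with single plates left out). The 4 calls of IR day 1 became 8 with RLE factors, 1 with no filter and 1 without the deepest well (leave-one-out 1 to 7), and IR day 3 gave 0 to 2 with plates left out. The 39 calls of MI against IR day 1 became 63 in DESeq2, 329 with no filter and, with the deepest well, 233 with at least 3 members a plate and 60 with at least 1 (leave-one-out 8 to 85). The interaction gave 0 to 22 calls in MI against sham and 0 to 5 in MI against IR day 1, where it gave 1 with at least 1 well of each class and 9 with the deepest well and at least 3. The causes were not tested.

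With the replicate number as a block, although the numbers did not pair the plates, the Aqp1 call in IR day 1 was lost, and the count was 2 for the rule genes in IR day 3, 13 for members of MI, 7 for those of IR day 1 and 5 for those of IR day 3. MI against IR day 1 could not be fitted with the block.

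Directions turned for values that had not passed and for 2 genes called higher in MI against IR day 1. Vwf in all endothelial wells, MI day 3 vs sham (-0.05), was 0.026 with no filter, 0.19 with the block, 0.055 and 0.11 with at least 1 and 5 endothelial wells, 0.75 with day 1 sham alone, and -0.50 to 0.63 with single plates left out. With day 14 sham alone, Gpihbp1 in MI was 0.099, and Vwf and Apln in IR day 3 were -0.53 and -0.99. With single plates left out, these 2 ran from -1.03 to 0.97 and from -0.54 to 1.97. Vwf in IR day 3 was -0.068 with at least 1 endothelial well, and Igf2 in IR day 1 was -0.89 with the block. Of the called genes, Mir5109 was -0.59 and -0.61 with at least 1 member a plate, without and with the deepest well, and Ptp4a3 was -0.84 and -0.23 with that well and at least 3 and 1 members. Ctsz was -0.0098 within plates with at least 1 well of each class.

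Depth limits the members of both sham groups together (19533 UMIs), IR day 3 (16773) and IR day 14 (12515) most. Fits with at least 5 members a plate were not possible.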
